A study of Mus musculus with 9 samples.

Results

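The genes described here are 10 genes of the interferon response in the mouse heart, namely the immunity-related GTPases Irgm1, Irgm2, Iigp1 and Igtp, the guanylate-binding proteins Gbp2, Gbp3 and Gbp7, the transcription factor Irf1 and the chemokines Cxcl9 and Cxcl10. They were chosen by name, with earlier results of these hearts known, out of 21463 genes that the deposited tables of all 3 ages share. All 10 were in every table and all 10 passed the filter on low counts at every age. RNA was sequenced from hearts of 2 mouse lines at 1, 4 and 8 weeks of age, with 3 hearts per group per the titles, which makes 18 libraries. The control group, Wt-Cre, carries the alphaMHC-Cre driver alone. The second group, Klf9KI, carries the same driver together with the allele named Klf9KI, marked as transgenic (Tg) in the labels. The alphaMHC promoter drives Cre in cardiomyocytes, so both groups express the recombinase there and differ in Klf9. The labels give neither litter nor sex, so p-values measure the spread between these hearts, which may be technical in part. A separate experiment in the study mapped chromatin bound by Klf9 in 1 library of sham-operated hearts and 1 library of hearts after transaortic constriction (TAC), an operation that loads the left ventricle with pressure. Those mice were 12 to 14 weeks old and the operation lay 2 weeks back.

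Immunity-related GTPases (IRG) and guanylate-binding proteins (GBP) are large GTPases that infected cells make in response to interferon and that attack the membranes around intracellular parasites and bacteria. Type II interferon (interferon-gamma) acts on its target genes through the gamma-activated site (GAS). Type I interferon acts through a complex that includes STAT2 and IRF9 and binds the interferon-stimulated response element (ISRE). Irf1 is itself induced by interferon-gamma, and its protein binds ISRE-like elements. Cxcl9 and Cxcl10 are ligands of the receptor CXCR3 and attract activated T cells and natural killer cells. In a heart most of these genes are known for their induction in viral myocarditis, in which cardiomyocytes, endothelial cells, fibroblasts and leukocytes can all be a source.

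The genes fall into clusters of close relatives. Irgm1 (ENSMUSG00000046879, chr11:48861968-48871683, minus strand), Igtp (ENSMUSG00000078853, chr11:58199556-58207591, plus strand), Irgm2 (ENSMUSG00000069874, chr11:58199618-58222782, plus strand) and Irf1 (ENSMUSG00000018899, chr11:53770014-53778374, plus strand) lie on chromosome 11 in the mm10 coordinates of the deposited tables. Gbp7 (ENSMUSG00000040253, chr3:142530342-142550149), Gbp3 (ENSMUSG00000028268, chr3:142560026-142573209) and Gbp2 (ENSMUSG00000028270, chr3:142620602-142638008) lie side by side on the plus strand of chromosome 3. Cxcl9 (ENSMUSG00000029417, chr5:92321347-92328079) and Cxcl10 (ENSMUSG00000034855, chr5:92346638-92348889) are neighbours on the minus strand of chromosome 5. Iigp1 is ENSMUSG00000054072.

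RefSeq promoter windows of build GRCm38.p6, which run from 250 bases before to 50 bases after a gene start, were on hand for 9 of the 10 genes, in 11 windows. Both strands were searched for GAS letters (TTCNNNGAA, held by 8.3% of all 32851 windows), ISRE letters (GAAANNGAAA, 3.44%) and the CACCC-like box that Krüppel-like factors bind (CCNCNCCC, 49.5%). ISRE letters were found for 7 genes, GAS letters for 4, and both for Gbp7, Igtp and Irgm2. The stretches that hold them are shown since they are what most of these genes have in common, with the GAS and ISRE letters in capitals.
Irgm1 (chr11:48871420-48871465, minus strand): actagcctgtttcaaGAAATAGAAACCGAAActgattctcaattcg
Igtp (chr11:58199496-58199546, plus strand): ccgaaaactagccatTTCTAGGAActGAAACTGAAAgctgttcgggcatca
Irgm2 (chr11:58214887-58214937, plus strand): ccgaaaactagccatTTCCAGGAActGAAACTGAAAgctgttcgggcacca
Gbp2 (chr3:142620589-142620628, plus strand): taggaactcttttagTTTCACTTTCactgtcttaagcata
Gbp3 (chr3:142559984-142560029, plus strand): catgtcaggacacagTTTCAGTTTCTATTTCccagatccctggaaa
Gbp7 (chr3:142530268-142530307, plus strand): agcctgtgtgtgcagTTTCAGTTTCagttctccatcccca
Cxcl10 (chr5:92349078-92349117, minus strand): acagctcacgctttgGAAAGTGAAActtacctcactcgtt
Irf1 (chr11:53769909-53769948, plus strand): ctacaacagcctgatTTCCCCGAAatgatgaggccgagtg

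The stretches of Igtp and Irgm2 are 51 bases long and identical at 49 of them. Counted from 1 at the 5′ end of the stretch with Igtp as the reference, the differences are T19C, inside the GAS letters, and T49C. In Irgm1 and Gbp3 a pair of ISRE matches overlap by 4 letters, which the long runs of capitals show. The ISRE letters begin 24 to 64 bases before the RefSeq start for the 6 GTPases and 213 bases before it for Cxcl10. Gbp7 holds 2 GAS matches outside the stretch shown, 106 and 87 bases before the start, and the match of Irf1 begins 90 bases before it. The RefSeq start of Irgm2 lies inside its annotated span and downstream of Igtp. No GAS or ISRE letters were found in the Cxcl9 window. A match in letters is a description of the sequence and not evidence that a factor binds there.

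**Figure D1:**
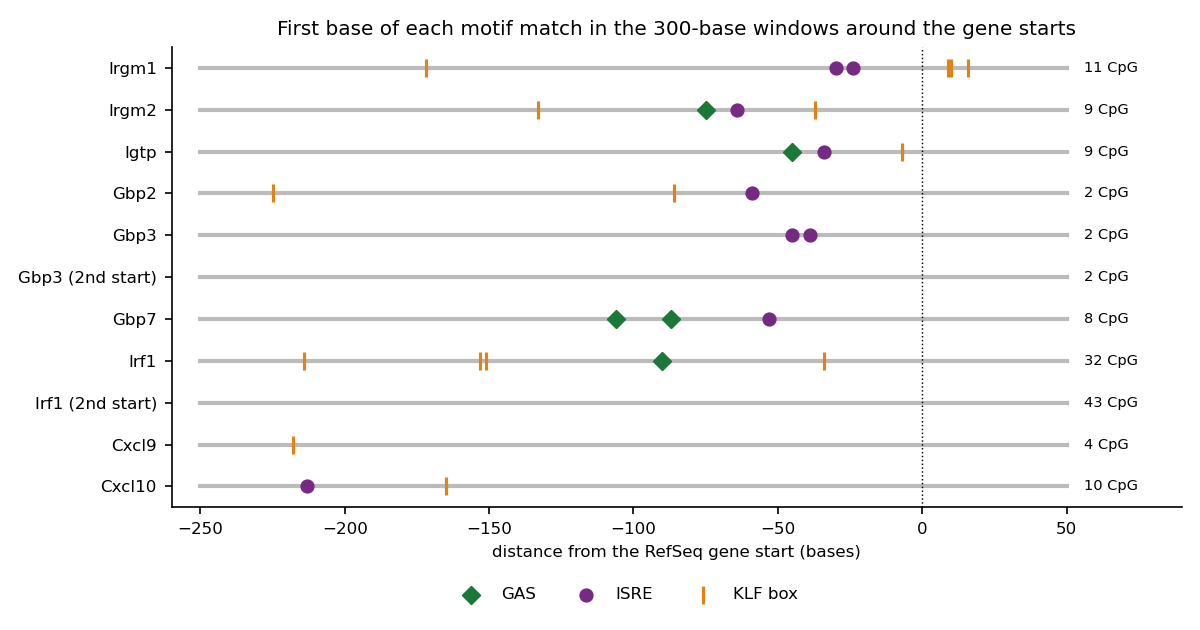
Positions of GAS, ISRE and CACCC-like box (KLF box) letters in the 11 RefSeq promoter windows of 9 genes. The horizontal axis is the distance in bases of the first letter of each match from the RefSeq start, each row is 1 window, and the number at the right is its count of CpG sites. ISRE matches of the 6 GTPases cluster within 64 bases before the start, and the 2 Irf1 windows hold 32 and 43 CpG sites against 2 to 11 in the others.

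Each library held between 17225388 and 32855383 counts in genes at the age of 1 week. The libraries of 4 weeks held 12086856 to 14890828 and those of 8 weeks 12543825 to 19912542. Klf9 itself was higher in all 3 Klf9KI hearts than in any Wt-Cre heart at each age, by 3.26 ± 0.14 on the log2 scale at 1 week (SE, edgeR adjusted p = 7.26e-07) and by 1.19 ± 0.22 at 8 weeks (adjusted p = 0.00651). At 4 weeks the difference was 0.37 ± 0.14 and did not pass the threshold (adjusted p = 0.109), with 143, 179 and 167 CPM (counts scaled to a common library size) in Klf9KI hearts and 113, 142 and 123 CPM in Wt-Cre hearts. Klf9KI hearts 1 and 2 at 1 week carried Xist at 710.1 and 607.3 CPM, while the other 16 libraries had at most 3.48 CPM. Differences between genotypes at 1 week are therefore given with and without these hearts where this changes a call or a direction. Comparisons between ages were not refitted in this way.

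At 4 weeks 9 of the 10 genes were higher in Klf9KI hearts, all 7 GTPases and both chemokines, by 1.36 to 3.98 on the log2 scale. Irf1 did not pass the test. The largest rise was that of Cxcl10, 15.8-fold, and the largest among the GTPases that of Igtp, 5.60-fold. In these 9 genes every Klf9KI heart was above every Wt-Cre heart. For comparison, 6.51% of the 14513 genes tested at 4 weeks passed as higher and 16.5% had all Klf9KI hearts above all Wt-Cre hearts, and the median log2 fold change was 1.85 over the 10 genes and 0.00 over all genes. A gene passed at a Benjamini-Hochberg adjusted p under 0.05 in edgeR's quasi-likelihood test, fitted on all tested genes of an age. In bulk RNA a larger number of expressing cells and more RNA per cell cannot be told apart.

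At 1 week none of the 10 genes passed, 2 had an unadjusted p under 0.05, and the DESeq2 Wald test called 1 of them, Irgm1. At that age 0.367% of 15825 genes passed as higher. Irgm1 and Gbp3 had every Klf9KI heart above every Wt-Cre heart, as did 9.45% of all genes. At 8 weeks Irgm1, Irgm2 and Cxcl10 passed as higher, 3 of 10, against 4.99% of 14483 genes. All 3 Klf9KI hearts were above all 3 Wt-Cre hearts for 6 of the 10 genes (15.4% of all genes) and below them for Cxcl9 alone (16.1% of all genes). The median log2 fold change of the 10 genes was 0.21 at 1 week and 0.48 at 8 weeks, beside medians of -0.01 and 0.04 over all genes. The count of 3 at 8 weeks fell to 0 when any Wt-Cre heart was left out and to 1 without Klf9KI heart 1. Over all genes the number that passed as higher fell as well. It went from 723 to between 267 and 343 without a Wt-Cre heart and to 376 without that Klf9KI heart.

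**Figure D2:**
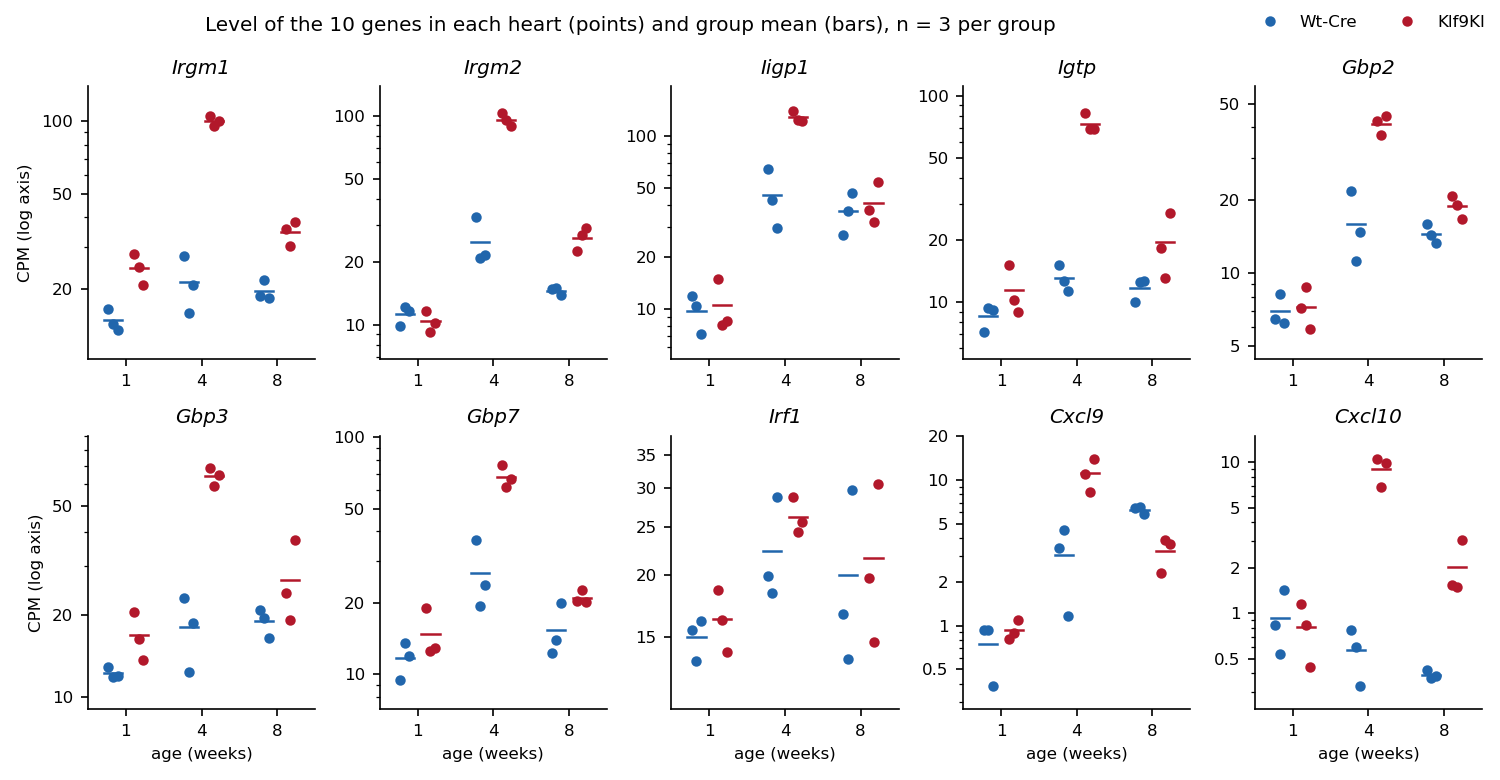
Level of each of the 10 genes in each heart, in CPM on a log axis, by age and genotype. Points are hearts and bars are group means (n = 3). At 4 weeks the Klf9KI points lie above all Wt-Cre points for every gene except Irf1, and at 1 week the groups overlap for 8 of the 10 genes.

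Irgm1, Irgm2 and Igtp encode the regulatory IRG proteins, which sit on the cell's own membranes and keep the effector IRG proteins from acting there. Irgm1 at 4 weeks was 106, 95.6 and 101 CPM in Klf9KI hearts 1 to 3 and 27.5, 15.9 and 20.9 CPM in Wt-Cre hearts 1 to 3. The lowest Klf9KI heart was far above the highest Wt-Cre heart. Irgm1 rose by 2.23 ± 0.18 on the log2 scale, or 4.69-fold (edgeR adjusted p = 3.85e-05). At 8 weeks it was 35.6, 30.3 and 38.2 CPM against 18.8, 21.8 and 18.3 CPM, again without overlap. The difference of 0.82 ± 0.20 was 1.77-fold (adjusted p = 0.0230), and it missed the threshold without Klf9KI heart 1 (adjusted p = 0.0807) and without each Wt-Cre heart (adjusted p from 0.0813 to 0.121). At 1 week Irgm1 was 28.2, 24.8 and 20.8 CPM against 16.6, 14.3 and 13.6 CPM. These groups did not overlap either, and the log2 difference of 0.72 ± 0.16 had an adjusted p of 0.0651. It passed in DESeq2 (adjusted p = 0.00712), without the filter on low counts (adjusted p = 0.00552), with edgeR's robust option (adjusted p = 0.0454) and in the authors' deposited table, where the log2 fold change was 0.73 (adjusted p = 0.0110). With the sex marker as a covariate the difference at 1 week was 0.49 (adjusted p = 0.553), and without the 2 libraries that carried Xist it was 0.50 (adjusted p = 0.551).

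Irgm2 at 4 weeks was 102, 95.2 and 88.9 CPM in Klf9KI hearts and 32.6, 20.9 and 21.4 CPM in Wt-Cre hearts. The rise was 1.93 ± 0.18 on the log2 scale, or 3.82-fold (adjusted p = 8.50e-05). At 8 weeks Irgm2 was 22.5, 26.9 and 29.0 CPM against 14.8, 14.9 and 13.9 CPM. Here the Wt-Cre hearts lay close together, and the log2 difference of 0.84 ± 0.20 (1.79-fold, adjusted p = 0.0236) missed the threshold without any 1 of them (adjusted p from 0.0969 to 0.106). At 1 week the hearts overlapped, with 11.7, 9.24 and 10.2 CPM against 9.85, 12.1 and 11.7 CPM and a log2 difference of -0.11 ± 0.20 (adjusted p = 0.858).

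Igtp, also called Irgm3, was 82.3, 68.7 and 68.7 CPM in Klf9KI hearts at 4 weeks and 15.2, 12.6 and 11.3 CPM in Wt-Cre hearts. Its rise of 2.49 ± 0.16 on the log2 scale, 5.60-fold, was past the threshold (adjusted p = 9.14e-06). At 8 weeks the hearts still did not overlap, with 18.3, 13.2 and 27.1 CPM against 10.05, 12.5 and 12.7 CPM. Klf9KI heart 2 was close to the controls, and the log2 difference of 0.74 ± 0.28 had an adjusted p of 0.129, which became 0.0217 without that heart. At 1 week Igtp was 15.2, 10.3 and 8.96 CPM against 7.18, 9.38 and 9.21 CPM, with overlap and a log2 difference of 0.42 ± 0.24 (adjusted p = 0.494). The annotated span of Irgm2 covers 7974 bases of Igtp on the same strand, so the division of reads between these 2 genes is uncertain. At 4 weeks the log2 fold changes were 2.49 for Igtp and 1.93 for Irgm2, and a difference between these 2 genes was not tested.

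Iigp1, or Irga6, is the effector IRG protein of the set and is loaded onto the vacuoles of parasites. At 4 weeks it was 141, 124 and 123 CPM in Klf9KI hearts and 64.5, 42.7 and 29.4 CPM in Wt-Cre hearts. The Wt-Cre hearts were spread widely, Klf9KI hearts were not, and the rise was 1.50 ± 0.23 on the log2 scale, 2.83-fold (adjusted p = 0.00239). At 8 weeks the groups overlapped, with 37.3, 32.0 and 54.5 CPM against 26.9, 37.1 and 47.3 CPM (log2 difference 0.15 ± 0.26, adjusted p = 0.773). At 1 week they overlapped as well, with 14.9, 8.12 and 8.56 CPM against 11.8, 10.4 and 7.13 CPM (log2 difference 0.10 ± 0.28, adjusted p = 0.916). Of the 4 IRG genes, Iigp1 alone had overlapping hearts at 8 weeks.

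The guanylate-binding proteins coat pathogen vacuoles and bacteria and can open them. Gbp2 at 4 weeks was 42.4, 37.2 and 44.6 CPM in Klf9KI hearts and 21.7, 11.3 and 14.7 CPM in Wt-Cre hearts, a rise of 1.38 ± 0.22 on the log2 scale (2.60-fold, adjusted p = 0.00244). Gbp3 was 68.7, 59.0 and 64.8 CPM against 23.0, 12.4 and 18.6 CPM, a rise of 1.83 ± 0.20 (3.56-fold, adjusted p = 0.000302). Gbp7, which in mice also supports the assembly of the NADPH oxidase on bacterial vacuoles, was 76.2, 61.8 and 66.4 CPM against 36.7, 19.3 and 23.8 CPM. Its rise of 1.36 ± 0.21 (2.56-fold, adjusted p = 0.00244) was the smallest of the 7 GTPases. In all 3 genes Wt-Cre heart 1 was the highest control and Wt-Cre heart 2 the lowest.

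None of the 3 guanylate-binding proteins passed at 8 weeks or at 1 week. At 8 weeks Gbp2 was 20.8, 19.0 and 16.7 CPM in Klf9KI hearts and 15.9, 14.4 and 13.3 CPM in Wt-Cre hearts (log2 difference 0.38 ± 0.21, adjusted p = 0.302). Gbp7 was 20.3, 22.7 and 20.1 CPM against 12.3, 13.9 and 19.9 CPM (0.45 ± 0.23, adjusted p = 0.268). In both genes the groups did not overlap, for Gbp7 only by the narrow gap of 20.1 to 19.9 CPM. Gbp3 did overlap, with 24.1, 19.2 and 37.4 CPM against 20.9, 19.5 and 16.5 CPM (0.50 ± 0.26, adjusted p = 0.264). At 1 week the log2 differences were 0.06 for Gbp2, 0.46 for Gbp3 and 0.34 for Gbp7, with adjusted p of 0.952, 0.307 and 0.535. Gbp3 was the gene of this family whose 1-week hearts did not overlap, with 20.5, 16.4 and 13.6 CPM against 12.8, 11.8 and 12.0 CPM. The 2 higher Klf9KI hearts carried Xist, and without them the log2 difference of Gbp3 was 0.17.

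Summed over the 7 GTPases, Klf9KI hearts 1 to 3 held 618, 541 and 557 CPM at 4 weeks and Wt-Cre hearts 221, 135 and 140 CPM. Wt-Cre heart 1 had the highest control value for 7 of the 7 genes. At 8 weeks the sums were 179, 163 and 223 CPM against 119.7, 134 and 142 CPM, and at 1 week 117, 90.1 and 80.9 CPM against 74.2, 79.8 and 71.7 CPM. The sums did not overlap at any age, though at 1 week the lowest Klf9KI heart and the highest Wt-Cre heart were close. Klf9KI hearts 1 and 2 of that age, with the higher sums, were those that carried Xist. Without them the 1-week log2 differences were 0.50 for Irgm1, -0.12 for Irgm2, -0.18 for Iigp1 and 0.08 for Igtp. They were -0.24 for Gbp2, 0.17 for Gbp3 and 0.17 for Gbp7, with a single Klf9KI heart left.

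Irf1, which transcribes many of the other genes described here in cells exposed to interferon-gamma, did not pass the test at any age. At 4 weeks it was 28.7, 24.4 and 25.5 CPM in Klf9KI hearts and 19.9, 18.4 and 28.7 CPM in Wt-Cre hearts. The highest heart of each group reached the same level, and the log2 difference was 0.23 ± 0.18 (adjusted p = 0.474). At 8 weeks Irf1 was 19.7, 14.7 and 30.5 CPM against 16.7, 13.6 and 29.7 CPM, a difference of 0.11 ± 0.34 (adjusted p = 0.872). Heart 3 was the highest of both groups at that age. At 1 week it was 18.7, 16.2 and 14.0 CPM against 15.5, 13.4 and 16.1 CPM, a difference of 0.12 ± 0.17 (adjusted p = 0.828). Whether Irf1 differed from the GTPases in its response was not tested.

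Cxcl10 was the gene with the largest change. At 4 weeks it was 10.5, 6.85 and 9.92 CPM in Klf9KI hearts, from 140, 105 and 146 counts, and 0.770, 0.602 and 0.331 CPM in Wt-Cre hearts, from 9, 7 and 4 counts. The rise was 3.98 ± 0.35 on the log2 scale (15.8-fold, adjusted p = 7.07e-05), and the control level rests on few counts. At 8 weeks it was 1.55, 1.50 and 3.04 CPM, from 33, 22 and 52 counts, against 0.422, 0.371 and 0.384 CPM, from 6, 4 and 5 counts. Klf9KI heart 3 stood above the other Klf9KI hearts, and the log2 difference of 2.34 ± 0.67 (5.08-fold) had an adjusted p of 0.0491. That call was lost when any of the 6 hearts was left out (log2 difference 1.93 to 2.52, adjusted p from 0.0641 to 0.193), without the filter on low counts (adjusted p = 0.105), with the robust option (adjusted p = 0.0503) and with the replicate number as a block (adjusted p = 0.0833). At 1 week Cxcl10 was 1.15, 0.840 and 0.439 CPM against 0.842, 0.540 and 1.43 CPM, with overlap (log2 difference -0.22 ± 0.69, adjusted p = 0.926). All of Cxcl10 lies within the span of Art3 on the opposite strand, and the labels do not settle whether the libraries kept the strand, without which the reads of such genes cannot be told apart. The log2 fold change of Art3 was -0.76 at 4 weeks (edgeR adjusted p = 0.00918) and -1.05 at 8 weeks (adjusted p = 0.0113). At 4 weeks Art3 had up to 5091 counts in a library. Whether reads of Art3 entered the counts of Cxcl10 was not tested.

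Cxcl9 was 11.0, 8.28 and 14.0 CPM in Klf9KI hearts at 4 weeks and 3.42, 4.56 and 1.16 CPM in Wt-Cre hearts. It rose by 1.86 ± 0.39 on the log2 scale (3.64-fold, adjusted p = 0.0116), a call that was lost without Klf9KI heart 3 (1.66, adjusted p = 0.0613). At 8 weeks the order was the opposite, with 2.30, 3.89 and 3.63 CPM in Klf9KI hearts and 6.40, 6.50 and 5.83 CPM in Wt-Cre hearts. The hearts did not overlap, and the log2 difference of -0.94 ± 0.36 did not pass (adjusted p = 0.131). At 1 week Cxcl9 was 0.804, 0.896 and 1.10 CPM against 0.941, 0.933 and 0.384 CPM (log2 difference 0.31 ± 0.65, adjusted p = 0.885). The 2 CXCR3 ligands thus stood on opposite sides of the controls at 8 weeks.

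**Figure D3:**
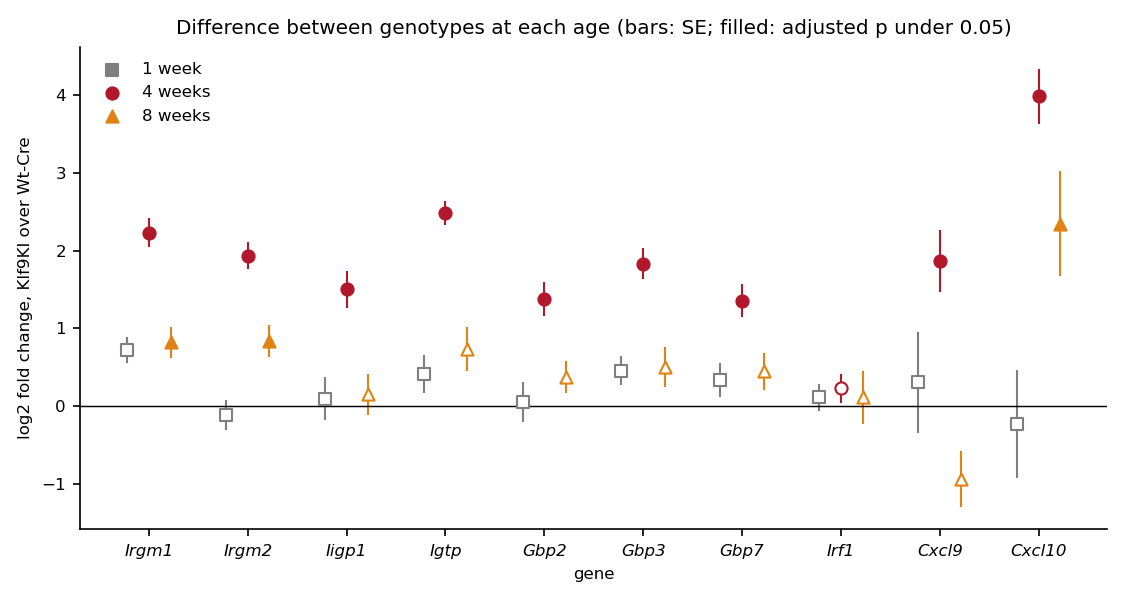
Log2 fold change of Klf9KI over Wt-Cre hearts for each of the 10 genes at 1, 4 and 8 weeks, with bars of 1 SE from the fit of each age. Filled points have an adjusted p under 0.05. The 9 filled points at 4 weeks lie between 1.36 and 3.98, and the 3 at 8 weeks are Irgm1 at 0.82, Irgm2 at 0.84 and Cxcl10 at 2.34.

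Whether the difference between genotypes changed with age was tested as an interaction in 1 fit of all 18 libraries, over 16660 genes. From 1 to 4 weeks it became larger for Irgm1 (by 1.50 ± 0.25 on the log2 scale, edgeR adjusted p = 0.00231), Irgm2 (2.04 ± 0.24, adjusted p = 0.000115), Igtp (2.07 ± 0.33, adjusted p = 0.00188), Gbp2 (1.32 ± 0.31, adjusted p = 0.0361), Gbp3 (1.37 ± 0.32, adjusted p = 0.0399) and Cxcl10 (4.22 ± 0.70, adjusted p = 0.00261). That made 6 of 10 genes, beside 0.702% of all genes tested. Iigp1, Gbp7 and Cxcl9 had estimates of 1.40, 1.01 and 1.55 that did not pass, and Irf1 had 0.11. The count was 4 to 8 when each library was left out. Gbp2 was lost in 10 and Gbp3 in 12 of the 18 fits, Iigp1 passed in 2 of them and Gbp7 in 1. Without Wt-Cre heart 1 of 4 weeks both Iigp1 and Gbp7 passed. The calls of Irgm1, Irgm2, Igtp and Cxcl10 held in all 18. Both libraries that carried Xist were Klf9KI hearts of 1 week, and no interaction fit left out both or used the sex marker. Sex and genotype are therefore mixed in part in the 1-week side of this contrast.

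Between 4 and 8 weeks the difference became smaller for Irgm1 (-1.44 ± 0.25, adjusted p = 0.0137), Irgm2 (-1.12 ± 0.24, adjusted p = 0.0388), Igtp (-1.78 ± 0.33, adjusted p = 0.0185) and Cxcl9 (-2.83 ± 0.57, adjusted p = 0.0300), 4 of 10 genes beside 0.312% of all genes. The estimates for Cxcl10 (-1.67, adjusted p = 0.326) and Gbp3 (-1.36, adjusted p = 0.0661) did not pass. Leaving out single libraries moved this count from 0, without Wt-Cre heart 2 of 8 weeks, to 7, without Wt-Cre heart 1 of 4 weeks. Over all genes 6 and 65 became lower in those fits, and 52 in the main fit. Irgm1 missed the threshold in 1 of the 18 fits, Igtp in 4, Cxcl9 in 6 and Irgm2 in 15. From 1 to 8 weeks the difference became larger for Irgm2 (0.92 ± 0.25, adjusted p = 0.0217) and Cxcl10 (2.54 ± 0.72, adjusted p = 0.0295), beside 3.9% of all genes. That call was lost for Cxcl10 in 7 of the 18 fits, and for Irgm2 without Klf9KI heart 2 of 1 week (0.88, adjusted p = 0.0589). Comparisons between ages share libraries and their values are therefore not independent. Age and any batch that follows it cannot be told apart in these fits. The comparison with 1 week was not refitted without both libraries that carried Xist.

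The Wt-Cre hearts alone gave the course in controls. From 1 to 4 weeks 9 of the 10 genes rose in them, while 17.5% of all genes passed as higher in that step. Iigp1 rose by 2.55 on the log2 scale, Cxcl9 by 2.33, Gbp7 by 1.53, Gbp2 by 1.52 and Irgm2 by 1.49. Igtp, Irf1, Gbp3 and Irgm1 rose by 0.94, 0.91, 0.90 and 0.87. Cxcl10 did not pass in that step (-0.37, adjusted p = 0.613), so that the gene with the largest difference between genotypes was the exception in the controls. The call of Irf1 was lost without Wt-Cre heart 3 of 4 weeks (0.69, adjusted p = 0.0738). From 4 to 8 weeks Cxcl9 rose by 1.23 in Wt-Cre hearts (adjusted p = 0.0397, beside 11% of all genes higher) and Irgm2 fell by 0.59 (adjusted p = 0.0228, beside 8.09% of all genes lower). At 8 weeks, when Cxcl9 was lower in Klf9KI hearts, its control level was thus above that of 4 weeks. That rise was lost in 13 and the fall of Irgm2 in 4 of the 18 fits that leave out 1 library.

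Levels of different genes were compared per length, as deposited FPKM (fragments scaled by gene length and by library size). In Wt-Cre hearts at 4 weeks Iigp1 had the highest level, 15.1 ± 5.86 FPKM (SD, n = 3). Irgm2, Igtp, Gbp2, Irf1, Gbp3 and Gbp7 followed between 6.99 ± 1.84 and 4.89 ± 1.65 FPKM, then Irgm1 at 3.81 ± 1.02 FPKM. In this order of 8 genes the ranges of mean ± SD of neighbours overlapped except between Iigp1 and Irgm2. Cxcl9 at 1.04 ± 0.596 FPKM and Cxcl10 at 0.260 ± 0.102 FPKM were lowest. In Klf9KI hearts Iigp1 (42.3 ± 3.23 FPKM) and Igtp (37.1 ± 3.92 FPKM) were highest, with overlapping ranges of mean ± SD, followed by Irgm2 (26.5 ± 1.79 FPKM), Gbp3 (20.1 ± 1.58 FPKM), Irgm1 (17.7 ± 0.923 FPKM), Gbp2 (16.8 ± 1.61 FPKM) and Gbp7 (12.4 ± 1.34 FPKM). Irf1 was lower than all GTPases there, at 6.75 ± 0.579 FPKM, although its range of mean ± SD overlapped with those of 6 of them in the controls. Of these neighbours the range of Irgm1 overlapped with that of Gbp2 and, barely, with that of Gbp3. Cxcl10 (4.13 ± 0.900 FPKM) and Cxcl9 (3.77 ± 0.992 FPKM) overlapped in their ranges in Klf9KI hearts.

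With the mean of each of the 6 groups taken away, the 7 GTPases were correlated to differing degrees over the 18 libraries. The median Pearson r of their 21 pairs was 0.50, from 0.10 to 0.85, and the pair with the highest r was Irgm1 and Gbp3. Cxcl10 had a median r of 0.40 with the GTPases, Irf1 0.26 and Cxcl9 -0.01. These values are descriptions over hearts that come in sets of 1 age and 1 genotype, and carry no p. They were not set against the values of other gene pairs. The genes outside the set whose log2 CPM over the 18 libraries was most like the mean course of the 10 genes were Rtp4 (r = 0.978), Phf11d (0.976), Parp14 (0.975), Oasl2 (0.973), Ifit1 (0.972), Rsad2 (0.968), Oas1a (0.968), Isg15 (0.963), Uba7 (0.961) and Ifit3 (0.959). Most of these are textbook interferon-stimulated genes, such as the 2′-5′ oligoadenylate synthetase Oas1a and the ubiquitin-like modifier Isg15 with its activating enzyme Uba7. With each age centred first, Parp12, Irf9 and Bst2 were among the first and Rtp4 was the only gene shared by both lists of 10.

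Other genes of the pathway were counted in lists that were drawn up with earlier results of these hearts known. Beside all of these counts stand the shares over all genes. At 4 weeks 6.51% of 14513 genes passed as higher and 965 genes as lower. At 8 weeks 4.99% of 14483 passed as higher and 811 genes as lower. At 1 week 58 of 15825 genes passed as higher and 108 as lower. No list was tested against these shares. At 4 weeks 7 of 11 tested further IRG genes rose, with a median log2 fold change of 1.39 over the list. Gm12250, also called Irgb10, rose from 1.05 ± 0.418 to 12.0 ± 2.46 CPM (SD, n = 3), by 3.50 on the log2 scale (adjusted p = 8.50e-05), Gm4951 by 2.96, Gm12185 by 2.14 and Ifi47 by 1.74. Of 5 further GBP genes 4 rose, namely Gbp10 by 2.18, Gbp6 by 1.66, Gbp5 by 1.11 and Gbp9 by 0.92. The antiviral dynamin-like GTPases Mx1 and Mx2 rose by 3.74 and 3.25. IRG and GBP genes are near-identical in part, so counts of single paralogs are uncertain. At 8 weeks none of the 10 tested IRG and none of the 4 tested GBP genes of these lists passed, while Mx1 rose by 2.34 (adjusted p = 0.0351).

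All 26 genes of a type I interferon signature rose at 4 weeks, with a median log2 fold change of 2.22, and 16 of them at 8 weeks, with a median of 1.19. At 4 weeks Ifit3b rose by 4.10, Ifit1 by 3.76, Ifit2 by 3.31 and Ifi44 by 2.75. Of the 24 tested further targets of interferon-gamma, 8 rose and 1 fell at 4 weeks, with a median of 0.53. Nlrc5, the transactivator of class I antigen presentation genes, rose by 2.42, the peptide transporter Tap1 by 1.66 and the immunoproteasome subunit Psmb8 by 1.58. The proteasome activator subunit Psme1 went the other way, by -0.99 at 4 weeks (adjusted p = 0.00117) and by -1.27 at 8 weeks (adjusted p = 0.00558). It was also among the 2 genes of the list that fell at 1 week, with Psme2, by 0.74 and 0.66. Neither passed without the 2 libraries that carried Xist (-0.71 and -0.83, edgeR adjusted p of 0.223 and 0.183) or with the sex marker as a covariate (-0.72 and -0.84, adjusted p of 0.333 and 0.228). At 8 weeks 3 of the 24 tested targets rose and 2 fell, beside 723 and 811 of all 14483 genes.

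In the signalling list 4 of 15 genes rose at 4 weeks, beside 6.51% of all genes. Among them were Stat2 and Irf9, components of the type I complex, and Usp18, a negative regulator of signalling at the type I receptor. Their log2 fold changes were 1.48, 0.99 and 3.70. Of the 9 other interferon regulatory factors 1 rose at 4 weeks, Irf7, the factor that amplifies type I interferon production, from 12.5 ± 4.32 to 183 ± 11.5 CPM (3.87 on the log2 scale, adjusted p = 8.59e-06). At 8 weeks Irf7 rose by 2.23 and Irf8 by 1.13, Usp18 by 1.97 and Socs3 by 1.39, and the interferon-gamma receptor chain Ifngr2 fell by 0.93 (adjusted p = 0.0137). Among 12 nucleic acid sensors and adaptors 4 rose at 4 weeks, Tlr9 by 1.77, Adar by 1.01, Tlr3 by 1.01 and Myd88 by 0.58. At 8 weeks Tmem173 alone rose, by 1.07, beside 4.99% of all genes. A single call in a list of this size says little about the list.

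No interferon gene passed the filter on low counts at any age. Ifng had 1 count over the 3 Klf9KI hearts and 1 over the 3 Wt-Cre hearts at 4 weeks, and Ifnb1 had 2 and 0. A difference in the interferons themselves was therefore not detectable at this depth. Cxcr3, the receptor of Cxcl9 and Cxcl10, was too low to be tested, with 33 counts over the Klf9KI hearts and 5 over the Wt-Cre hearts at 4 weeks and 13 and 11 at 8 weeks. Of 14 other chemokines and chemokine receptors 8 rose at 4 weeks, among them Ccl5 by 3.48, Ccl12 by 3.09, Cx3cl1 by 1.37 and Ccr2 by 1.22. At 8 weeks 3 of 15 rose, among them Cx3cr1 by 2.07 and Cx3cl1 by 1.82. Over all genes 6.51% passed as higher at 4 weeks and 4.99% at 8 weeks.

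**Figure D4:**
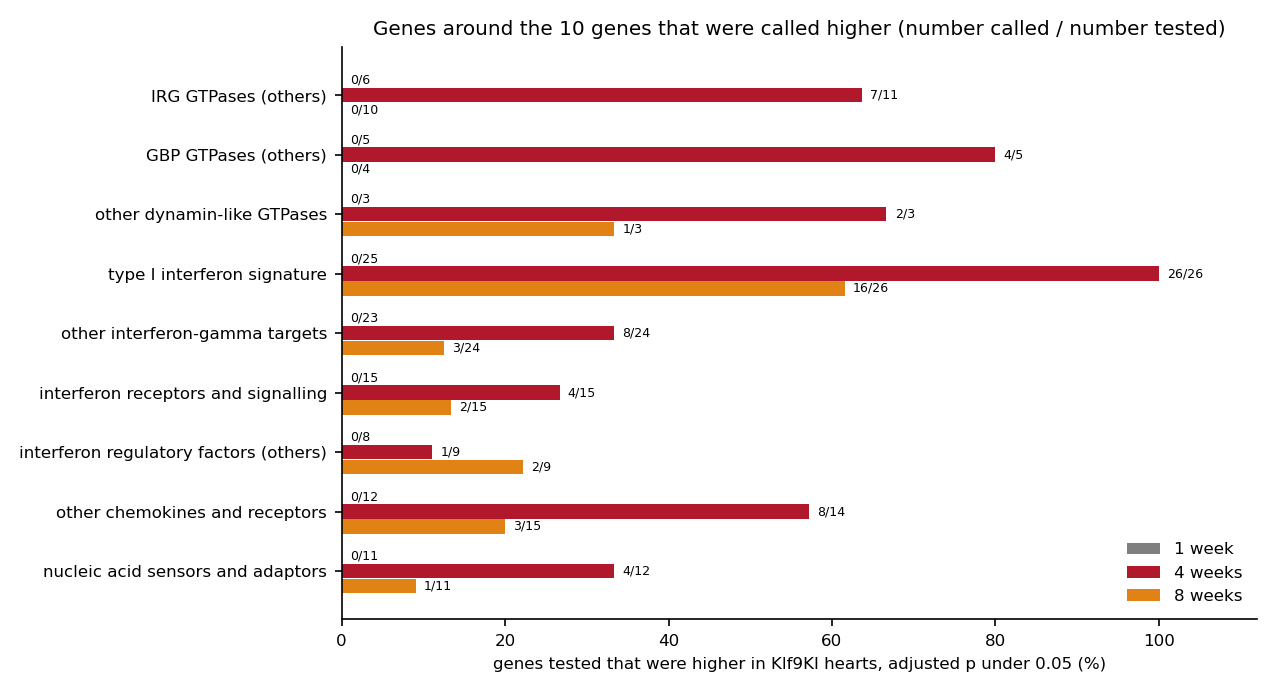
Percent of the tested genes of each list that were higher in Klf9KI hearts at an adjusted p under 0.05, at 1, 4 and 8 weeks, with the number that rose over the number tested. The type I signature stands at 26 of 26 at 4 weeks and 16 of 26 at 8 weeks, and no list has a gene that rose at 1 week. Over all genes 0.367, 6.51 and 4.99% passed as higher at 1, 4 and 8 weeks.

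Markers of the cell types that a heart holds moved in part with these genes. Over all genes 945 of 14513 passed as higher and 965 as lower at 4 weeks. At 8 weeks these numbers were 723 and 811 of 14483. Of 20 macrophage markers 4 rose at 4 weeks (Lgals3 by 2.09, Fcgr1 by 1.99, Ms4a7 by 1.50 and Adgre1 by 1.37) and 1 fell, Cd163. Their summed level was 541 to 834 CPM in Klf9KI hearts and 424 to 566 CPM in Wt-Cre hearts, with overlap, and 695 to 836 against 444 to 580 CPM at 8 weeks, when 5 of 18 rose. None of the 6 tested T and natural killer cell markers passed at 4 weeks. The 20 markers of that list summed to 22.7 to 31.4 CPM against 18.2 to 19.7 CPM, and Nkg7 had 26 counts over the Klf9KI hearts and 0 over the Wt-Cre hearts. Endothelial markers (0 of 12 called) summed to 1724 to 1977 CPM against 1599 to 1877 CPM. Of 10 cardiomyocyte markers 4 fell at 4 weeks, Ryr2 by 0.92, Myh6 by 0.68, Mb by 0.58 and Pln by 0.54, and 4 fell at 8 weeks. They summed to 50715 to 58298 CPM in Klf9KI hearts and 68243 to 77164 CPM in Wt-Cre hearts at 4 weeks, so the defining genes of heart muscle were high in both groups. Of 10 fibroblast markers Postn and Col1a2 rose at 4 weeks, by 1.80 and 0.83, and 4 rose at 8 weeks, Postn by 4.10, Col1a1 by 2.26, Col1a2 by 1.83 and Col3a1 by 1.65. Their sums did not overlap, with 4060 to 4891 CPM in Klf9KI hearts and 2791 to 3799 CPM in Wt-Cre hearts at 4 weeks and 2851 to 4921 against 1584 to 1949 CPM at 8 weeks. Of 4 tested B cell markers Pax5 rose by 2.42 at 4 weeks. The part of any of these cell types in the differences of the 10 genes was not tested.

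**Figure D5:**
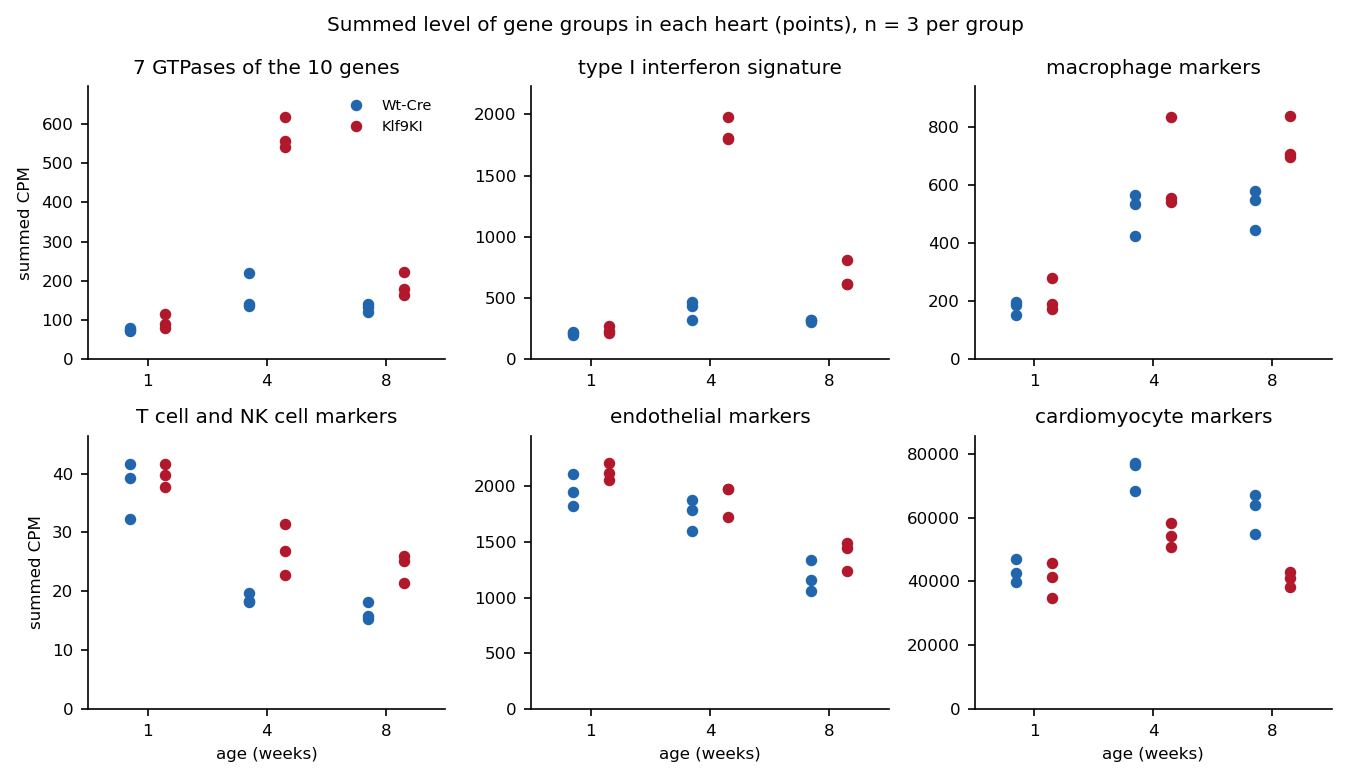
Summed CPM per heart of the 7 GTPases, the type I signature and the macrophage, T and natural killer, endothelial and cardiomyocyte markers, by age and genotype. Each point is 1 heart. At 4 weeks the GTPase sums of Klf9KI hearts are 541 to 618 CPM against 135 to 221 CPM, and the macrophage sums of the groups overlap.

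The chromatin table of the study lists 5238 merged regions bound by Klf9, of which 4645 were called present in the sham and 4073 in the TAC library. Among the 10 genes Irf1 alone is named by a region, beside 37.7% of all genes tested at 4 weeks. The region lies at chr11:53769764-53770258 as the deposited table gives it, over the annotated start of Irf1, and overlaps 1 CpG island. Its centre is 3 bases before that start. The authors' mean signal there was 31.3 in the sham and 30.5 in the TAC library, above 73.8 and 75.5% of all regions, with a log2 ratio of TAC to sham of -0.03. With 1 library per condition no test was possible. The RefSeq window that begins where this region begins, chr11:53769764-53770063 on the plus strand, is shown with its CACCC-like letters in capitals, since it is the promoter among the 9 where binding was recorded.
Irf1 window: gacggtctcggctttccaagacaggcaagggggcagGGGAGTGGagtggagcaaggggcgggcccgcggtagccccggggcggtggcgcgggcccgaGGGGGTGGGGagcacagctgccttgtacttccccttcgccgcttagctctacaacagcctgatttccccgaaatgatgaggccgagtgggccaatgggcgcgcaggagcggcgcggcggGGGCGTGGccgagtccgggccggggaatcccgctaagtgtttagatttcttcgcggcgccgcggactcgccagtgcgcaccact

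The window holds 4 matches, all on the minus strand, at 214, 153, 151 and 34 bases before the start, the pair in the middle overlapping. It has 32 CpG sites, while 9.52% of all windows have at least that many and the median is 7. Windows with a CACCC-like box were found for 7 of the 9 genes, so the letters alone do not set Irf1 apart. For the other 9 genes the nearest region lay 33.3 kb (Irgm1) to 185 kb (Iigp1) from the annotated start. The gene with a Klf9 region was the one that passed at no age in the RNA, and the chromatin came from other mice of another age. Of the pathway lists, 11 of 15 signalling genes and 5 of 9 other interferon regulatory factors were named by a region, beside 37.7% of all genes tested at 4 weeks. Regions named 9 of 25 further interferon-gamma targets, which is near that share. They named 2 of 26 genes of the type I signature, Dhx58 and Isg15, and none of the further IRG and GBP genes of the lists.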

How the data were processed

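The authors deposited 1 gene table per age with raw counts and FPKM per heart, log2 fold changes and p-values of their own test, per the file headers, and 1 table of merged Klf9 regions with a mean signal per library, whose scaling is not given in the sources used here. The submitters' processing notes list, without roles, MACS2 2.1.0, featureCounts 1.5.0-p3, DESeq2 1.20.0, BWA, HISAT2 2.0.5, fastp and StringTie 1.3.3b, with mm10 as the build. The deposited counts were tested with edgeR 4.0.16 under R 4.3.3 (quasi-likelihood test, filterByExpr, TMM, Benjamini-Hochberg adjustment, threshold 0.05), each age alone over 15825, 14513 and 14483 genes, without the robust option. The 18 libraries were fitted together for differences between ages and for the course of Wt-Cre hearts, and their CPM also gave the likeness between genes. Other CPM used the effective library size of each age. The edgeR genotype test of each age and the contrasts of the 18-library fit were first run on simulated counts with known genotype effects. No change with age in Wt-Cre hearts was simulated. The DESeq2 test, the sex marker and the replicate block were not tried in this way. Errors are SD over 3 hearts, or SE.

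The 10 genes and 17 lists of 231 genes were chosen with earlier results of these data known. Named were Klf9, the 10 genes, up to 4 called genes per list and age, and the 10 genes most like the set. Of the genes so chosen, 2 are left out of the text. Xist, Art3, Nkg7, Cd163, Cxcr3, Ifng, Ifnb1, Dhx58 and Isg15 were picked for mention with their values in view. The alternatives included DESeq2 1.42.0, its size factors, other filters, a 2-fold limit, a single fit of all libraries, the replicate number as a block, each library left out, and at 1 week the sex marker; edgeR's robust option was added after seeing the data. Gene IDs matched the reference name table for 26206 of 26234, 24196 of 24222 and 30036 of 30074 rows.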

Additional observations from a re-analysis of the deposited data

Results flagged for a closer look

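By edgeR's interaction test in the fit of 18 libraries, the difference between Klf9KI and Wt-Cre hearts changed with age for some of the 10 genes. From 1 to 4 weeks its log2 size grew by 1.50 for Irgm1, 2.04 for Irgm2, 2.07 for Igtp, 1.32 for Gbp2, 1.37 for Gbp3 and 4.22 for Cxcl10, beside 0.702% of all 16660 genes. Gbp2 was lost in 10 and Gbp3 in 12 of the 18 fits that leave out 1 library. From 1 to 8 weeks it grew by 0.92 for Irgm2, lost in 1 fit, and by 2.54 for Cxcl10, lost in 7, beside 3.9% of all genes. Between 4 and 8 weeks it changed by -1.44 for Irgm1, -1.12 for Irgm2, -1.78 for Igtp and -2.83 for Cxcl9, beside 0.312% of all genes that became lower. These calls were lost in 1, 15, 4 and 6 fits. The contrasts share libraries, and those with 1 week were not refitted with the sex marker or without both libraries that carried Xist.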

How the results depend on the processing

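At 1 week none of the 10 genes passed in the main test, and 1 passed, Irgm1, with the DESeq2 Wald test, with no filter on low counts and with edgeR's robust option. At 8 weeks 1 of the 3 genes remained with a limit of 2-fold. When each library was left out, the number of genes that passed ranged from 0 to 3 at 8 weeks, from 0 to 2 for the difference between 8 and 1 weeks, from 0 to 7 for that between 8 and 4 weeks and from 0 to 3 for Wt-Cre hearts from 4 to 8 weeks. It ranged from 8 to 9 at 4 weeks. The number called over all genes in these fits ranged from 517 to 1984 at 8 weeks and from 8 to 450 for the difference between 8 and 4 weeks.

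Signs changed only for differences that did not pass. With sex as a covariate at 1 week the log2 difference was -0.20 for Iigp1, -0.25 for Gbp2 and -0.10 for Irf1, and without the 2 libraries that carried Xist -0.18, -0.24 and -0.0859. The leave-one-out ranges that include both signs were, at 1 week, -0.22 to 0.26 for Iigp1, -0.10 to 0.20 for Gbp2, -0.00258 to 0.50 for Cxcl9 and -0.55 to 0.21 for Cxcl10, and at 8 weeks -0.10 to 0.37 for Iigp1 and -0.22 to 0.51 for Irf1. For the difference between 4 and 1 weeks the range was -0.0110 to 0.33 for Irf1. Between 8 and 1 weeks it was -0.00594 to 0.21 for Irgm1, -0.21 to 0.39 for Iigp1, -0.00523 to 0.57 for Igtp, -0.29 to 0.21 for Gbp3, -0.0594 to 0.33 for Gbp7 and -0.35 to 0.35 for Irf1. Between 8 and 4 weeks it was -0.47 to 0.25 for Irf1. In Wt-Cre hearts it was -0.66 to 0.0588 for Cxcl10 from 1 to 4 weeks. From 4 to 8 weeks it was -0.12 to 0.28 for Irgm1, -0.35 to 0.23 for Iigp1, -0.0690 to 0.16 for Igtp, -0.15 to 0.35 for Gbp2 and -0.37 to 0.24 for Irf1. The causes were not tested.

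With the replicate number as a block, 0, 9 and 2 of the 10 genes passed at 1, 4 and 8 weeks. Hearts of the same number correlated at -0.118 to 0.232 across genotypes, and hearts of different number at -0.215 to 0.15. At 8 weeks the values were 0.063 to 0.144 for the same number and -0.127 to 0.033 for the others. Every same-number pair was thus above every other pair at 8 weeks, which did not hold at 1 or 4 weeks. The labels name no pairing, and the main tests did not pair the hearts. A pairing is not excluded by these values. Over all genes the block gave 2479 calls in place of 1910 at 4 weeks and 1893 in place of 1534 at 8 weeks.

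Over all genes the number called at 1 week was 166, and 555 with DESeq2, 695 with no filter, 266 with the robust option, 97 with the block, 5 with sex as a covariate and 47 in the fit of 18 libraries, which gave 3248 in place of 1534 at 8 weeks. DESeq2 gave 405 in place of 196 genes for the difference between 4 and 1 weeks and 426 in place of 80 for that between 8 and 4 weeks. Chemokine counts of single hearts, and the interferons, are limited by depth.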
